A study of Mus musculus with 4 samples.

Results

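Tetraspanins are small proteins that cross the plasma membrane several times and gather integrins, immunoglobulin superfamily proteins and signalling receptors into shared membrane domains. In B cells Cd81 takes part in antigen receptor signalling, Cd37 and Cd53 are carried by most mature cells, and Cd9 is known as a surface antigen of innate-like B cells and plasma cells. The 10 tetraspanin genes examined were Cd9, Cd37, Cd53, Cd63, Cd81, Cd82, Cd151, Tspan13, Tspan31 and Tspan32. They were chosen by name, and all 10 had an entry among the 20599 gene symbols of the expression data.

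RNA-Seq was carried out on 2 libraries of peritoneal B1a cells and 2 libraries of follicular B2 cells from C57BL/6 wild-type mice. Dnmt3a was intact in all 4 libraries, and the mutant cells of the study were not analysed here. Per the methods, B1a cells were sorted from the peritoneal cavity with a gate that included CD23- IgM+ CD5+ and B2 cells from the spleen with one that included IgDhi IgMlo CD21+, each from 2 littermate controls. The sample labels give an age of 4 weeks for every library, whereas the methods give a later age for the spleen donors. Cell type, organ and possibly age therefore changed together and cannot be told apart, and p-values measure the spread between 2 libraries a group. In sorted bulk samples, fewer cells that carry a transcript and less RNA per cell cannot be told apart either.

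Libraries held between 11032732 and 18588623 counts, so that 3 counts correspond to between 0.157 and 0.270 CPM (counts relative to the TMM-scaled library size), a floor that covers counting error only. The B1a libraries differed more from each other than the B2 libraries did, with a Pearson r across genes of 0.836 against 0.966 on log2 CPM. In addition, 200 genes had at least 100 counts in one B1a library and at most 3 in the other, against 4 such genes in B2. All 5 pan-B cell markers were found in every library. Among them Ms4a1 (log2 fold change 0.73) and Cd79a (0.53) were called higher in B1a and Pax5 (-0.90) lower. Of 5 B1a markers, 4 were called higher in B1a. The exception was Cd5, one of the sorting antigens, at 15.9 and 22.4 CPM in B1a against 5.47 and 2.25 CPM in B2. Summed markers of T cells lay between 68.8 and 108 CPM, of marginal zone B cells between 124 and 261, and of neutrophils, mesothelium and eosinophils between 0 and 6.64 in any library. Of 12078 genes tested, 512 were called higher and 181 lower in B1a with edgeR's quasi-likelihood test at an adjusted p under 0.05. On TPM with limma the split was 266 and 233.

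The 10 genes lie on 6 chromosomes of the mouse genome (GRCm38), with 4 of them on chromosome 7. Tspan32 (chr7:143004907-143019486) and Cd81 (chr7:143052750-143067930) are neighbours on the plus strand, 33263 bases apart. Cd9 occupies chr6:125460266-125494760 on the minus strand, and Cd37 occupies chr7:45233632-45239340, also on the minus strand. On the minus strand also lie Cd53 (chr3:106758861-106790149), Cd82 (chr2:93419102-93462950), Tspan13 (chr12:36014555-36042478) and Tspan31 (chr10:127067287-127070972), whereas Cd151 (chr7:141467362-141471481) lies on the plus strand. The bases upstream of 3 genes are shown because the study concerns CpG methylation and these genes span the range of differences: Cd9 had the largest difference among the genes detected in both cell types, Cd81 did not pass the test, and Cd63 was listed at 0 in B1a. Sequences are from RefSeq (GRCm38), 5′ to 3′ on the strand of the gene, with CpG dinucleotides in capitals and without bases that lie in an exon of the same gene.
Cd9 chr6:125494792-125495010(-): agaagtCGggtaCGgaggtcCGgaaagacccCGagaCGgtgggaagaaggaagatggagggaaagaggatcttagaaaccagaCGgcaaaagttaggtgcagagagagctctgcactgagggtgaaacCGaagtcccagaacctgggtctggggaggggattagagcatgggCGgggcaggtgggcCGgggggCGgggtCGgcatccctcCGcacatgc
Cd81 chr7:143052500-143052738(+): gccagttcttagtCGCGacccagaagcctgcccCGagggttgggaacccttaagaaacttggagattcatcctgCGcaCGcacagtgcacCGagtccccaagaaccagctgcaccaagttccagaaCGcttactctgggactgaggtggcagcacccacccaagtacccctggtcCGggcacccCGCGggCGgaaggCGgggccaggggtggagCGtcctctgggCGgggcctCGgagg
Cd63 chr10:128909095-128909344(+): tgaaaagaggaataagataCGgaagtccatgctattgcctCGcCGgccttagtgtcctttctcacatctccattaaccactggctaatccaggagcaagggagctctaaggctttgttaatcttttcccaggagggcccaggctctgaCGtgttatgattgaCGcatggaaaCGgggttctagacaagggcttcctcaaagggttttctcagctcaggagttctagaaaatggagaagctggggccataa
The full 250 bases upstream of Cd9 hold 16 CpGs, as do those of Cd81, against 6 for Cd63 and a median of 6 over 32851 such windows. The windows of Cd9 and Cd81 also hold 2 and 3 copies of the GC box GGGCGG on either strand, a motif present in 32.7% of windows. The stretches printed hold 12, 15 and 6 CpGs. The window of Cd63 holds 1 copy of the motif GAGGAAG, found in 10.6% of windows. None of the 3 windows holds CCAAT (33.8% of windows) or TATAAA (12.4%). Cd9 and Cd81, with the same CpG count over 250 bases, had log2 fold changes of 3.67 and 0.50. At least as many CpGs are held by 25.4% of windows. A relation of CpG count to expression was not tested, and no methylation data were analysed here. The Cd9 stretch also lies in an exon of Gm26728, a transcript on the opposite strand, and the Cd63 stretch lies upstream of the start of its main transcripts but inside the RefSeq gene body (chr10:128896231-128912822, plus strand), which begins further upstream.

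Cd37 was by far the most abundant tetraspanin in both cell types when levels were compared per length, as TPM, which corrects for transcript length and library size. Its TPM was 2545 and 2108 in the B1a libraries and 1711 and 1672 in the B2 libraries. Cd53 came next, at 272 ± 15.4 TPM in B1a and 340 ± 37.9 TPM in B2 (SD, n = 2 each). Cd81 followed with 262 ± 29.1 TPM in B1a, where its range overlapped that of Cd53, and 219 ± 1.59 TPM in B2, where it did not. Tspan32 and Cd82 occupied the fourth and the fifth place in both cell types. Cd151 was low in both, at 24.8 ± 3.05 TPM in B1a and 19.4 ± 1.93 TPM in B2, and Cd63 was the lowest.

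Cd9 was the gene that changed place in the order. It stood sixth in B1a, at 120 ± 85.7 TPM, and ninth in B2, at 11.1 ± 2.68 TPM, below Cd151. In B1a its range overlapped those of its neighbours Cd82 and Tspan13, so that its place there is not fixed. In B2 no neighbouring genes in the order had overlapping ranges. The order of the other 9 genes was the same in both cell types.

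**Figure D1:**
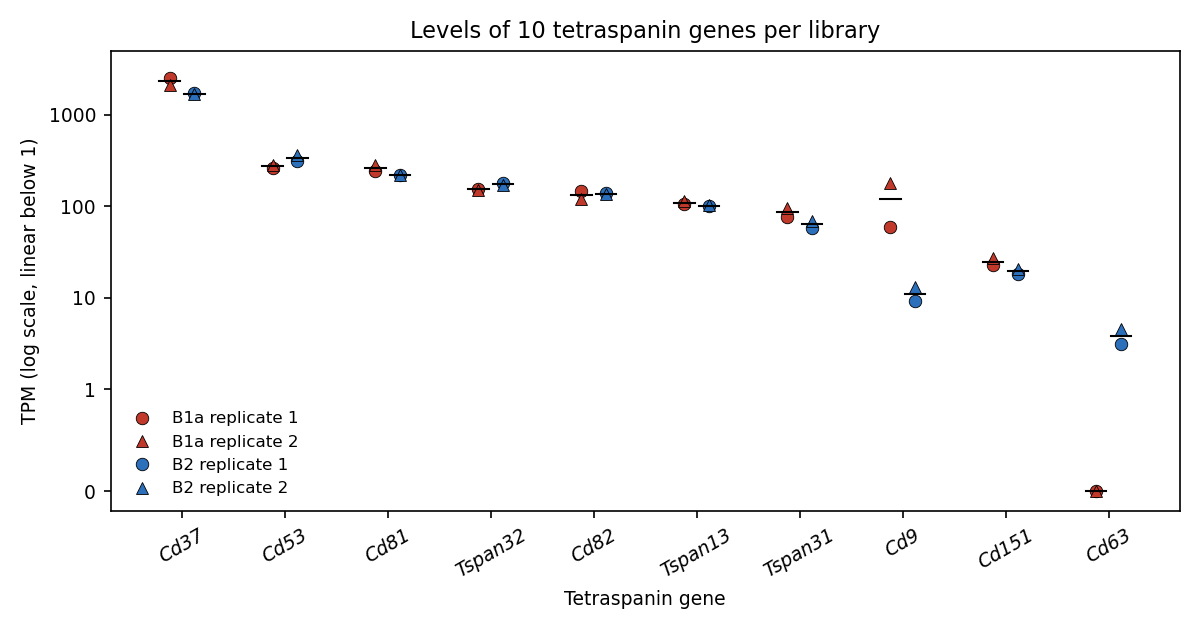
TPM of the 10 tetraspanin genes (log axis, linear below 1) in each of the 4 libraries; red marks B1a, blue marks B2, circles and triangles are replicates 1 and 2, and bars are group means. Cd37 lies highest in every library, Cd9 lies at 59.5 and 181 TPM in B1a against 9.20 and 13.0 in B2, and Cd63 is at 0 in both B1a libraries.

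Together the 10 genes made up most of the tetraspanin transcripts. Of 33 mouse tetraspanin genes looked up, 31 had an entry, 5 were at 0 in every library and 17 had more than 3 counts in every library, 9 of the 10 members among them. The summed TPM of the 31 genes was 3814 and 3622 in B1a and 2941 and 2969 in B2. The 10 genes held between 92.8% and 94.8% of that sum in each library.

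Within the family sum Cd37 took 66.7% and 58.2% in B1a and 58.2% and 56.3% in B2, so that the lower B1a value and the higher B2 value were nearly equal. Cd9 took 1.56% and 4.99% in B1a against 0.313% and 0.438% in B2. Cd53 took a smaller part in B1a, at 6.85% and 7.82%, than in B2, at 10.7% and 12.4%. Tspan32 likewise took 4.07% and 4.21% in B1a and 6.10% and 5.77% in B2. The groups did not overlap for Cd9, Cd53 or Tspan32, nor for Cd63, Cd82 and Tspan13, which took smaller parts in B1a. For Cd37 they were apart only narrowly. Those of Cd81, Cd151 and Tspan31 overlapped. These shares sum to a fixed total, so that a gain by one gene lowers the others. Groups apart are common: by CPM, 25.3% of all genes tested had both B1a values above both B2 values. A further 29.1% had both below. No such background was taken for parts of a family sum.

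**Figure D2:**
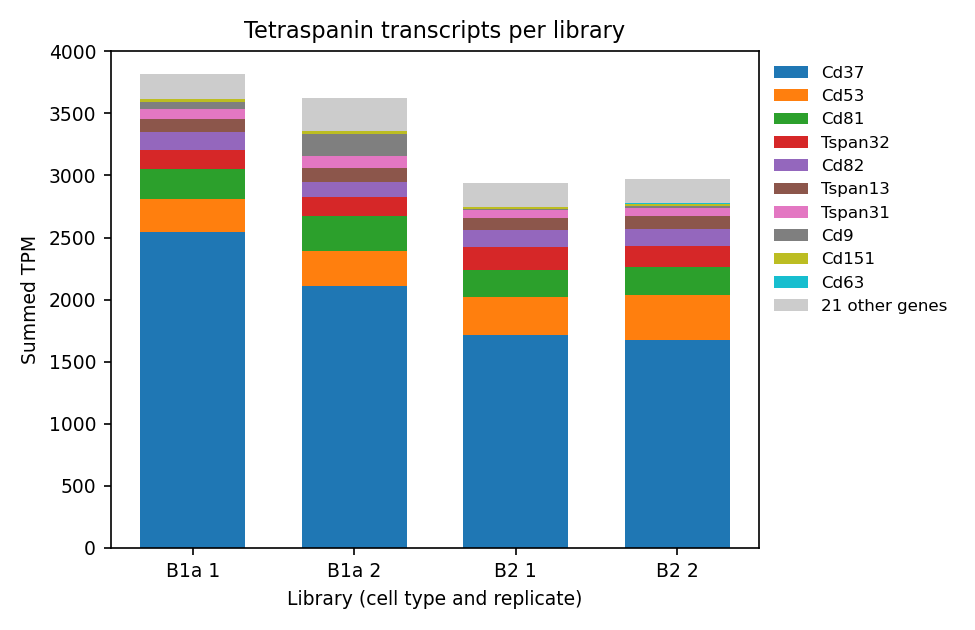
Summed TPM of 31 tetraspanin genes in each library, with 1 colour for each of the 10 genes examined and grey for the 21 other genes. Cd37 fills more than any other gene in every bar, and the Cd9 segment is visible in the B1a bars, where it holds 1.56% and 4.99% of the sum.

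Next, B1a and B2 cells were compared gene by gene on TMM-scaled counts. Of the 10 genes, Cd9 and Cd37 were called higher in B1a and 0 were called lower, where 4.24% of all genes tested were called higher and 1.5% lower. At an unadjusted p under 0.05 edgeR gave 4 higher and 1 lower. No share over all genes was taken at the unadjusted threshold, here or below. DESeq2 also called Cd9 and Cd37 and 0 lower, and limma-voom called Cd37 and 0 lower. By CPM, 8 of the 10 genes had both B1a values above both B2 values, as did 25.3% of all genes. Cd63 had both below, as did 29.1% of all genes, and Cd53 overlapped. Among the 10 genes the median log2 fold change was 0.43, against -0.03 for all genes tested. The count of genes by direction depends on the scale. TPM differences were lower throughout, with a median over genes of -0.26 on the log2 scale. By TPM 6 genes were higher, Cd53, Cd63 and Tspan32 were lower, and Cd82 overlapped. The share of all genes that lay apart on TPM was not taken, so that these counts have no background.

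**Figure D3:**
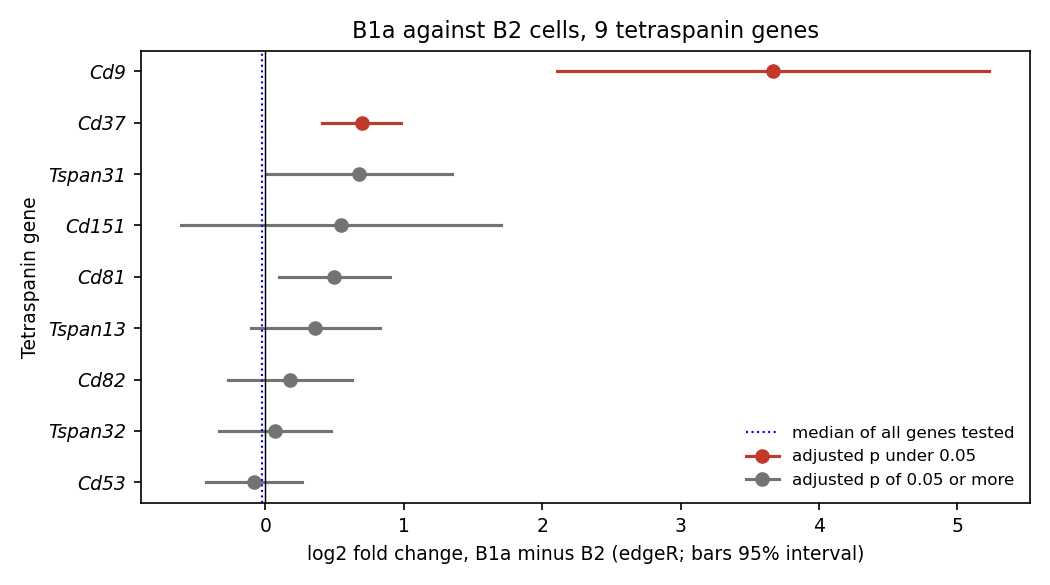
Log2 fold change of 9 tetraspanin genes between B1a and B2 (x axis; points are edgeR estimates, bars 95% intervals, red an adjusted p under 0.05, the dotted line the median of all genes tested). Cd9 lies at 3.67 and Cd37 at 0.69, with intervals above 0, while the other 7 genes did not pass the adjusted threshold; Cd63 is not drawn because both B1a libraries are at 0.

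Cd9, which binds integrins and Igsf8 and marks B1 and marginal zone B cells, showed the largest difference among the 9 genes detected in both cell types. Its level was 28.8 and 89.8 CPM in the B1a libraries and 3.79 and 5.44 CPM in the B2 libraries. Both B1a libraries were well above both B2 libraries, yet they were 3.11-fold apart, against 1.43-fold for the B2 pair. The ratio of the group means was 12.9, and the log2 fold change was 3.67 (SE 0.63, 95% interval 2.11 to 5.23 by edgeR, Benjamini-Hochberg adjusted p = 0.030). Leaving out each library in turn gave log2 fold changes between 2.63 and 4.25. Each of these fits leaves 1 library in a group, so that the spread comes from the other pair only. With limma-voom the adjusted p was 0.13, and with limma on log2(TPM + 1) it was 0.054, at a log2 difference of 3.13 on that scale.

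Marker transcripts of some other cell types were also higher in B1a. Of all genes tested, 25.3% had both B1a values above both B2 values and 4.24% were called higher. The summed CPM of 9 macrophage markers was 225 and 261 in B1a and 68.0 and 72.5 in B2. Of the 9, 6 were higher in both B1a libraries and Fcgr1 was at 0 in both. Csf1r (log2 fold change -0.03) and Mertk (0.46) overlapped between the groups. Of 8 tested, 1 was called. It was Lyz2, the macrophage lysozyme, at a log2 fold change of 2.57 (edgeR, adjusted p = 0.0076). The macrophage sums of the B1a replicates thus lay close together where Cd9 was 3.11-fold apart. The sum of 5 erythroid markers was 78.8 and 504 CPM in B1a and 36.1 and 80.8 in B2. Of these, 2 were higher in both B1a libraries and Hba-a2 passed the test at a log2 fold change of 3.39 (edgeR, adjusted p = 0.028). The other 3 overlapped, among them Alas2 at a log2 fold change of -0.098. Within B1a the replicate with the higher erythroid sum also had the higher Cd9 level. The 6 mast cell markers summed to 46.1 and 16.5 CPM in B1a and 1.47 and 0.941 in B2, with 5 higher in both B1a libraries, Cma1 called (edgeR, adjusted p = 0.04985) and Fcer1a at 0 in every library; here the replicate with more marker transcript had less Cd9. The platelet markers Pf4 and Ppbp were at 0 in both B1a libraries, and the sum of 5 platelet markers, 18.6 and 17.2 CPM in B1a and 22.1 and 13.2 in B2, overlapped. The 3 plasma cell markers summed to 82.6 and 103 CPM in B1a and 76.9 and 108 in B2, which overlapped. Among them Prdm1, a regulator of plasma cell identity, was at 22.4 and 36.2 CPM in B1a and 4.16 and 4.13 CPM in B2 and was called higher (log2 fold change 2.82 by edgeR, adjusted p = 0.035), whereas Sdc1, the plasma cell syndecan, was at 0 and 8.27 CPM against 13.4 and 25.2 CPM and was not called. The part of these cell types in the Cd9 difference was not tested.

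**Figure D4:**
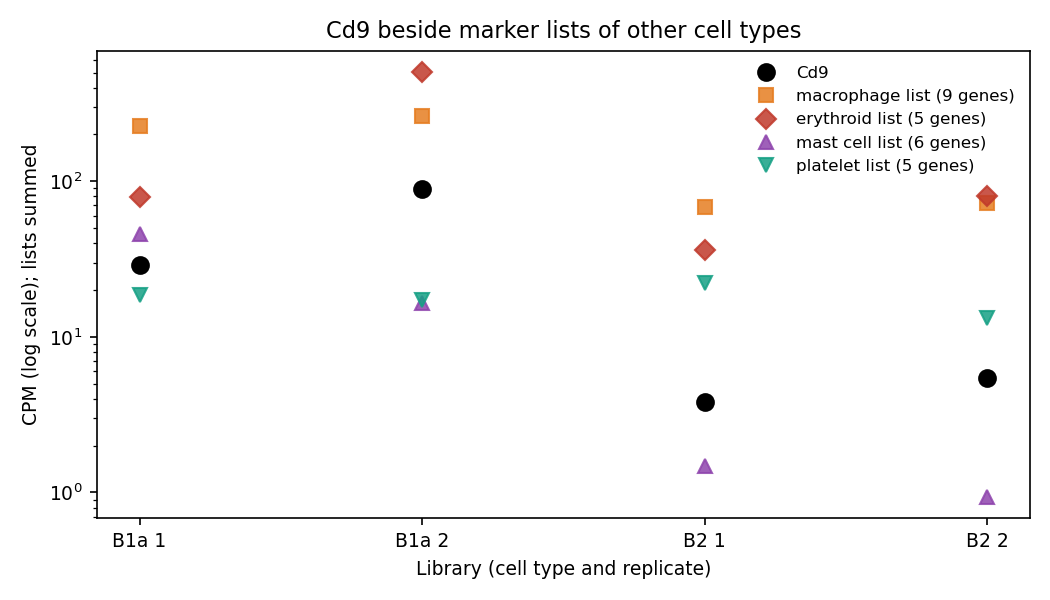
CPM of Cd9 (black) and summed CPM of 4 marker lists (colours) in each library, on a log axis. Cd9 and the macrophage and mast cell sums are higher in both B1a libraries, the erythroid sum is highest in B1a replicate 2 at 504 CPM, and the platelet sums overlap between groups.

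The 3 genes whose profile over the 4 libraries lay closest to that of Cd9, by the root mean square distance of centred log2 CPM among 12077 genes, were Hba-a2, Abca9 and Myadm. Hba-a2, which encodes an alpha globin chain, was at 35.6 and 96.6 CPM in B1a and 5.05 and 7.46 CPM in B2, a distance of 0.13. It is nearly identical to Hba-a1, so that the division of reads between them is uncertain. Myadm, a membrane protein of myeloid and other cells, was at 508 and 925 CPM in B1a and 60.0 and 85.7 CPM in B2, a distance of 0.29. These likenesses rest on 4 libraries and on the same replicate difference within B1a.

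Cd37, a leukocyte tetraspanin required for lasting antibody responses, was the other gene called. It was at 1268 and 1093 CPM in B1a and at 730 and 728 CPM in B2. The groups were apart and each pair of replicates was close. The ratio of means was 1.62 and the log2 fold change 0.69 (SE 0.12, 95% interval 0.41 to 0.98 by edgeR, adjusted p = 0.027). On TPM the log2 difference was 0.45, or 0.72 relative to the median of all genes, and limma on log2(TPM + 1) gave an adjusted p of 0.12. The TPM ratio of Cd37 to Cd53 was 9.74 and 7.44 in B1a and 5.46 and 4.56 in B2, without overlap. With 2 libraries a group the smallest p an exact two-sided permutation test can give is 0.333, so that ratios were not tested.

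Cd81, a tetraspanin of most cell types, was at 151 and 181 CPM in B1a and 116 and 119 CPM in B2. The groups did not overlap, but the difference did not pass the threshold (log2 fold change 0.50, 95% interval 0.10 to 0.90 by edgeR, adjusted p = 0.16). Without B1a replicate 1 the log2 fold change was 0.62 for Cd81 and 0.84 for Tspan31. In that fit the remaining B1a library is assumed to vary like the B2 pair, so that no test is given here.

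Cd53, a tetraspanin of all leukocytes, was at 309 and 343 CPM in B1a and 315 and 375 CPM in B2. The values interleaved, and the log2 fold change was -0.08 (95% interval -0.43 to 0.27 by edgeR, adjusted p = 0.83). Cd82, a metastasis suppressor also found on lymphocytes, was at 103 and 89.4 CPM in B1a against 84.7 and 85.05 CPM in B2 (log2 fold change 0.18, 95% interval -0.27 to 0.63). Tspan32, a haematopoietic tetraspanin, was at 106 and 104 CPM in B1a and 103 and 98.6 CPM in B2 (log2 fold change 0.07, 95% interval -0.34 to 0.47). For these 3 genes the estimate for Cd37 lies above the interval. The sign of Cd82 and of Tspan32 turned negative on TPM, at -0.06 and -0.19.

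Cd151, a partner of laminin-binding integrins, was at 16.8 and 18.98 CPM in B1a and 11.1 and 13.3 CPM in B2. The groups were apart, but the interval of the log2 fold change of 0.55 was wide, from -0.61 to 1.70 (edgeR, adjusted p = 0.60). Tspan13 was at 85.02 and 92.9 CPM in B1a and 68.0 and 70.7 CPM in B2 (log2 fold change 0.36, 95% interval -0.11 to 0.82). Tspan31, first described as a gene amplified in sarcoma, was at 48.9 and 62.4 CPM in B1a and 31.7 and 38.0 CPM in B2 (log2 fold change 0.68, 95% interval 0.01 to 1.35 by edgeR, adjusted p = 0.24). Its estimate was close to that of Cd37, with a wider interval.

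Tspan31 shares 641 of its 2193 exon bases, or 29.2%, with Cdk4 on the opposite strand. Cdk4, a kinase of the cell cycle, was at 14.3 and 45.4 CPM in B1a and 53.3 and 66.2 CPM in B2, and did not pass the test (log2 fold change -1.002, adjusted p = 0.37). The B1a replicate with less Cdk4 also had less Tspan31. The methods name a stranded library kit, but whether the counting used strand is not given in the sources used here. If it did not, reads of this stretch cannot be assigned to either gene. Smaller overlaps with transcripts on the opposite strand were found for Cd9 (10.7% of exon bases), Cd151 (7.04%), Tspan32 (4.35%), Cd81 (3.61%) and Cd37 (0.369%). The uncertainty of the counts from reads divided between genes was small, with a posterior SD of at most 5.84 counts for Tspan31 and at most 1.68% of the count for any of the 10 genes.

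Cd63, a tetraspanin of lysosomes and exosomes, was listed at 0 counts in both B1a libraries and at 11 and 26.8 counts in the B2 libraries. In CPM these were 0.954 and 1.403 in B2. The B2 mean of 1.18 CPM was 4.37-fold above the mean B1a floor of 0.269 CPM, at 3 counts per library. This ratio is not a lower bound, because it uses means and the floor covers counting error only. The difference did not pass the test (edgeR, adjusted p = 0.21), and a fitted fold change is not a bound for a gene at 0. Of 578 genes between 0.5 and 2 CPM in both B2 libraries, 155 (26.8%) were likewise at 0 in both B1a libraries. Cd63 is expressed by macrophages and mast cells, whose marker sums were higher in B1a. The part of these cells in the Cd63 counts was not tested.

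The other tetraspanins were then examined. Of the 21 other family members with an entry, 11 were tested and 0 were called in either direction by edgeR or limma-voom, with a median log2 fold change of 0.15. At an unadjusted p under 0.05 edgeR gave 2 higher and 0 lower, and DESeq2 called 1, Tspan14. Tspan4 (log2 fold change -2.35, adjusted p = 0.59), Tspan17 (2.34, adjusted p = 0.19) and Tspan3 (-0.98, adjusted p = 0.66) had the largest estimates. Tspan17, a partner of the protease Adam10, was at 10.5 and 22.2 CPM in B1a and 4.60 and 1.88 CPM in B2, without overlap. Tspan14, which also binds Adam10, came nearest to the threshold, at 115 and 164 CPM in B1a and 77.7 and 71.6 CPM in B2 (log2 fold change 0.90, 95% interval 0.35 to 1.45 by edgeR, adjusted p = 0.088).

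Among binding partners of tetraspanins, 3 integrin genes were higher in B1a. Of 5 on the list, all tested, 3 were called higher and 0 lower by edgeR, where 4.24% of all genes were called higher and 1.5% lower. At an unadjusted p under 0.05 edgeR gave 4 and 0. DESeq2 called 4 and 0, and limma-voom 3 and 0. The median log2 fold change of the list was 1.22. Itgb1, the beta 1 chain that pairs with Cd9-, Cd81- and Cd151-bound alpha chains, was at 923 and 680 CPM in B1a and 40.5 and 41.6 CPM in B2 (log2 fold change 4.29, SE 0.19 by edgeR, adjusted p = 0.00062). Itgb7, the beta 7 chain of gut homing, was at 707 and 476 CPM against 188 and 149 CPM (log2 fold change 1.81, adjusted p = 0.011). Itga6, the laminin receptor chain bound by Cd151, was at 119 and 101 CPM against 47.8 and 46.5 CPM (log2 fold change 1.22, adjusted p = 0.027). Per length, Itgb1 stood at 2.14 and 1.31 times the TPM of Cd81 in B1a and at 0.122 and 0.123 times in B2. Relative to Itga6, Cd151 was lower in B1a, with TPM ratios of 0.487 and 0.707 against 0.826 and 0.983.

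Of the remaining partner genes, Cr2 and Fcer2a were called lower in B1a, and both encode antigens used for sorting. Cr2 (CD21), used to sort B2 cells, was at 98.4 and 92.0 CPM in B1a and 968 and 1045 CPM in B2 (log2 fold change -3.40), and Fcer2a (CD23), absent from sorted B1a cells by the gate, was at 63.7 and 60.9 CPM in B1a and 934 and 896 CPM in B2 (log2 fold change -3.87). As genes of sorting antigens, they are no finding between the groups. The ratio of Cd81 to Cr2 in TPM was 6.51 and 8.36 in B1a and 0.508 and 0.483 in B2. Of the interferon-induced membrane proteins that associate with Cd81, Ifitm2 (log2 fold change 2.47, adjusted p = 0.65) and Ifitm3 (1.41, adjusted p = 0.38) were not called. On the ADAM10 axis edgeR did not call Notch2 (0.28, adjusted p = 0.19), which DESeq2 called higher in B1a, or Adam17 (-0.25, adjusted p = 0.47).

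Of the immunoglobulin superfamily partners of Cd9 and Cd81, 2 of 3 were tested and 0 were called by edgeR, DESeq2 or limma-voom, with 0 at an unadjusted p under 0.05. Igsf8 was at 27.3 and 26.4 CPM in B1a and 16.7 and 18.2 CPM in B2 (log2 fold change 0.62, adjusted p = 0.41). Of 7 genes of endosomal sorting and exosome release, the compartment in which Cd63 resides, all were tested and 0 were called by edgeR, DESeq2 or limma-voom, with 0 at an unadjusted p under 0.05 and a median log2 fold change of 0.15. The genes listed as locus neighbours of members, Tssc4 (0.52, edgeR, adjusted p = 0.67) and Cdk4, were not called either.

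**Figure D5:**
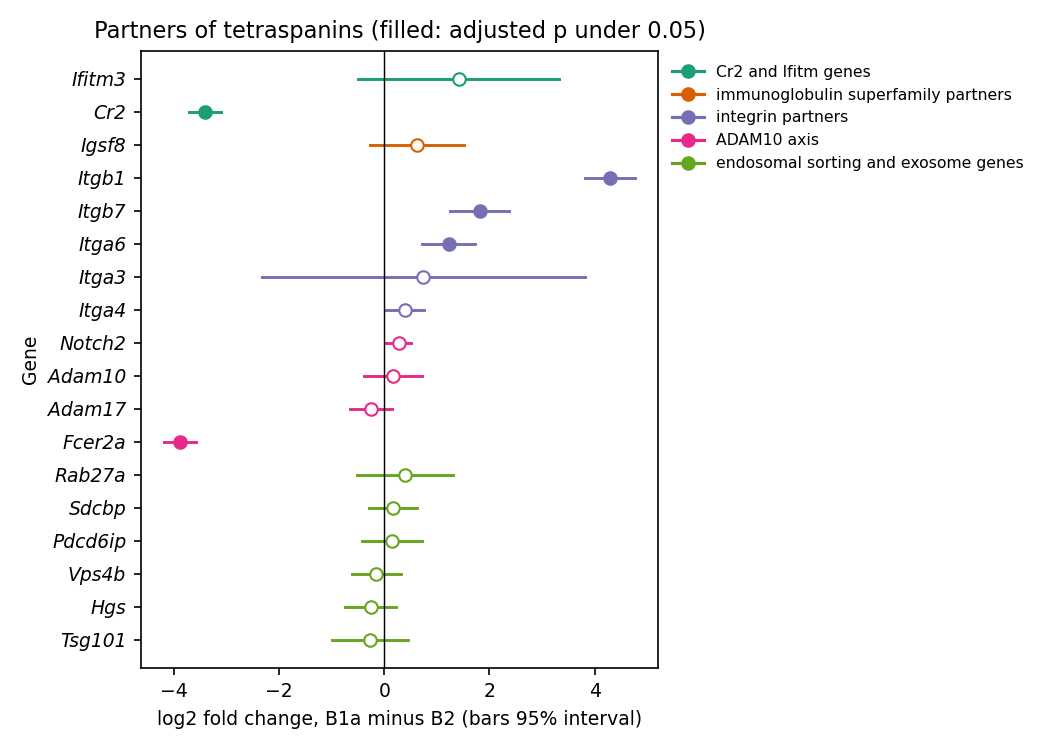
Log2 fold change between B1a and B2 (x axis; bars are 95% intervals) for 18 partner genes with more than 3 counts in every library, coloured by list; filled points have an adjusted p under 0.05. Itgb1, Itgb7 and Itga6 lie above 0 and Cr2 and Fcer2a, which encode sorting antigens, lie below.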

How the data were processed

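RNA-Seq was analysed for 2 wild-type B1a and 2 wild-type B2 libraries, prepared from total RNA. The labels name a kit with ribosomal depletion, the methods a stranded kit, and elsewhere the study speaks of polyadenylated RNA, so that the selection of RNA is uncertain. Reads were aligned to mm10 and quantified over RefSeq genes with RSEM by the authors (version 1.2.29 in the submitters' processing notes; the methods name another). The authors deposited expected counts that were not normalized and in which RSEM splits ambiguous reads over entries. TPM, scaled by the authors to the same sum in every library, was used for levels between genes. A deposited signal column, the posterior SD of each count, and the deposited lengths (mean effective length per gene) served as checks. FPKM was not used.

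The leading entry number was removed from each gene name, and expected counts of 21970 entries were summed by symbol and rounded. Genes were filtered with filterByExpr, scaled by TMM (factors 0.963 to 1.05) and tested with edgeR 4.0.16 in R 4.3.3 by the quasi-likelihood test, with Benjamini-Hochberg adjustment over all 12078 genes at a threshold of 0.05. Standard errors were derived from the F statistic. EBSeq, named in the methods, was not run. Alternatives used DESeq2 1.42.0 and limma 3.58.1. The floor was 3 counts. Intervals are at the 95% level.

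The members and lists were chosen with earlier results of these data known. All 10 members are named; of each list at most the called genes and the 3 with the largest fold change are named, and some lists are given only as counts or sums. Tspan14 and the marker genes at 0 were named after their values were seen. An item of 1 list is not reported here. Positions and promoter windows are from RefSeq and GENCODE on GRCm38; all 10 members matched. Motifs were searched on both strands.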

Additional observations from a re-analysis of the deposited data

How the results depend on the processing

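Cd9 and Cd37 were called under 8 of 12 alternatives each. Over these alternatives and the 4 fits without 1 library, Cd9 kept its sign, between 2.63 and 4.25. Cd37 also kept its sign, between 0.45 and 0.80. The number of tetraspanins called higher was 1 with limma-voom. It was also 1 with limma on TPM centred on the median gene, an alternative chosen after seeing the data. In each of the 3 other limma fits on TPM (pseudocount 1, pseudocount 0.1, and no filter) it was 0. The cause was not tested. Signs turned, with no call, for Cd53 without B2 replicate 2 (0.044, lowest -0.20 without another library), for Cd82 on TPM (-0.059, -0.059 and -0.059 with pseudocount 1, 0.1 and no filter) and for Tspan32 with upper quartile factors (-0.0020) and on TPM (-0.19, -0.19 and -0.19). Cd63 could not be fitted with at least 10 counts in every library or in 1 fit without a library.

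Over all genes, 693 were called (512 higher, 181 lower). DESeq2 called 1562 (1011 and 551), limma-voom 278 lower, voom with weights per cell type 1415 (1054 and 361), a minimum of 10 counts 279 lower, no filter 1141 (779 and 362), limma on log2(TPM + 1) 266 higher, on log2(TPM + 0.1) 359 (196 higher), and without a filter on TPM 202 (117 and 85). Without 1 library the count was between 539 and 6143 (394 to 2787 higher, 144 to 3356 lower); the counts of 3953 and 6143 arose without B1a replicate 1 and 2, where the spread comes from the B2 pair only. With the replicate number as a block 1481 genes were called (889 and 592), 2 tetraspanins among them. The replicate difference of B1a and that of B2 had a correlation of -0.03 over genes. With 2 pairs this value cannot settle whether the numbers pair the samples. Cd63 rests on 11 and 26.8 counts in B2 and 0 in B1a.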
